A study of Rattus norvegicus with 14 samples.

Results

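Immediate early response genes are the first genes a cell transcribes after a stimulus, before any new protein has to be made. Serum, growth factors, stress and partial hepatectomy switch them on in the liver through kinases that activate transcription factors already present. Their products are mostly transcription factors and feedback proteins, and their mRNAs are short-lived. The genes followed here were Fos, Jun, Junb and Atf3 of the AP-1 and bZIP group, the zinc finger factor Egr1, the orphan nuclear receptor Nr4a1, the growth regulator Myc and the antiproliferative gene Btg2. Every probe set whose platform gene symbol was 1 of these 8 names was taken. This gave 18 probe sets of 7 genes among 8799 probe sets on the array, with 3 for Fos, 4 for Jun, 2 for Junb, 4 for Egr1, 1 for Atf3, 2 for Myc and 2 for Nr4a1. No probe set carried the symbol Btg2 in the annotation used, so Btg2 is not analysed here.

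RNA came from the left lateral lobe of rat liver, taken at necropsy, and was hybridised to Affymetrix rat arrays. Each of the 14 arrays belonged to a magnesium-supplemented (5 arrays), a standard (5 arrays) or a magnesium-deficient diet (4 arrays). The strain, sex and age of the rats, the magnesium content of the diets and the time on them are not given in the labels. The labels do not tie each array to its own animal, and p-values here cover the spread between samples, which may be technical. Of 10 listed hepatocyte markers, 9 were on the array and all 9 passed the filter on dim probe sets, among them Alb, Apoa1, Ttr, Cps1 and Tat.

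Of the 8 genes, 4 (Egr1, Junb, Nr4a1 and Btg2) had an entry in the RefSeq promoter table (rat build GRCr8). The 250 bases before the transcription start are shown for the 3 of them that were measured, because immediate early genes are known for compact promoters that serum- and cAMP-activated factors bind. Capitals mark CArG boxes, the motif of serum response factor, and TGACG, the core of the cAMP response element, searched on both strands.
Egr1, chr18:26736828-26737077, plus strand: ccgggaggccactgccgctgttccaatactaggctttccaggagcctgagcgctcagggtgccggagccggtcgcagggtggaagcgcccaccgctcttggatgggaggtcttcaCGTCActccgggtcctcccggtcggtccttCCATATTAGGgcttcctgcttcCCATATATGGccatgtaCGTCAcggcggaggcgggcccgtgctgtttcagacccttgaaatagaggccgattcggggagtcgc
Junb, chr19:40080876-40081125, plus strand: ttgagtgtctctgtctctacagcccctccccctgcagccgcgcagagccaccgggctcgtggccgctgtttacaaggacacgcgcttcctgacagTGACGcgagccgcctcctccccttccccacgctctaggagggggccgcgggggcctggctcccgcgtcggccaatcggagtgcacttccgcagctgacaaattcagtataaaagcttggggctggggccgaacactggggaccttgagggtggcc
Nr4a1, chr7:134259888-134260137, plus strand: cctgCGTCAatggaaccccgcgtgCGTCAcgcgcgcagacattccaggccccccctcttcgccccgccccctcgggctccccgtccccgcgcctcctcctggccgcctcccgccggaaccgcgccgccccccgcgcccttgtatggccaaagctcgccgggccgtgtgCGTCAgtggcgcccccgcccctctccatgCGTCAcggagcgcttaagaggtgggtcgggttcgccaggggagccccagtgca

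The Egr1 window held 2 CArG boxes, CCATATTAGG at 105 to 96 and CCATATATGG at 83 to 74 bases before the start, and 2 TGACG cores. The Nr4a1 window held 4 TGACG cores and the Junb window 1, with no CArG box in either window. Among 33469 promoter windows of the same length, 1.5% held a CArG box and 18.2% held TGACG. The full element TGACGTCA and the AP-1 motif TGANTCA were in none of the 3 windows, whereas 1.59% and 6.34% of all windows held them. The Egr motif GCGNGGGCG matched 1 time in the Nr4a1 window, at 73 to 65 bases before the start, and not in the others shown (4.29% of all windows). The window of Btg2, which was not measured, held 1 TGACGTCA, 1 GCGNGGGCG and no CArG box. A match describes letters only, not a bound site.

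The signals given below are the deposited intensities after quantile normalisation over the 14 arrays, and log2 differences, SEs, 95% intervals and adjusted p-values come from limma fitted over 5133 probe sets in 1 model of the 3 diets. Both comparisons with the standard diet share its 5 arrays. All 18 probe sets of the 7 genes passed the filter on dim signals. For each gene the probe set with the highest mean signal stands for the gene. No probe set of these genes was called in any comparison at a limma adjusted p under 0.05: 0 of 18 in deficient against standard, where 0% of the 5133 probe sets were called, 0 of 18 in supplemented against standard (0% of all), 0 of 18 in deficient against supplemented (0.0195% of all) and 0 of 18 in the F-test over the 3 diets (0.0195% of all). At an unadjusted p under 0.05 there was 1 of 18 in deficient against standard, a Myc probe set, where 3.04% of all probe sets fell under that level. There were 0 of 18 in supplemented against standard (8.88% of all), 0 of 18 in deficient against supplemented (13% of all) and 0 of 18 in the F-test (9% of all). In all 54 comparisons of a probe set between 2 diets, the arrays of the diets overlapped. The share of all 5133 probe sets with such an overlap was not computed, so this count does not set these genes apart.

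**Figure D1:**
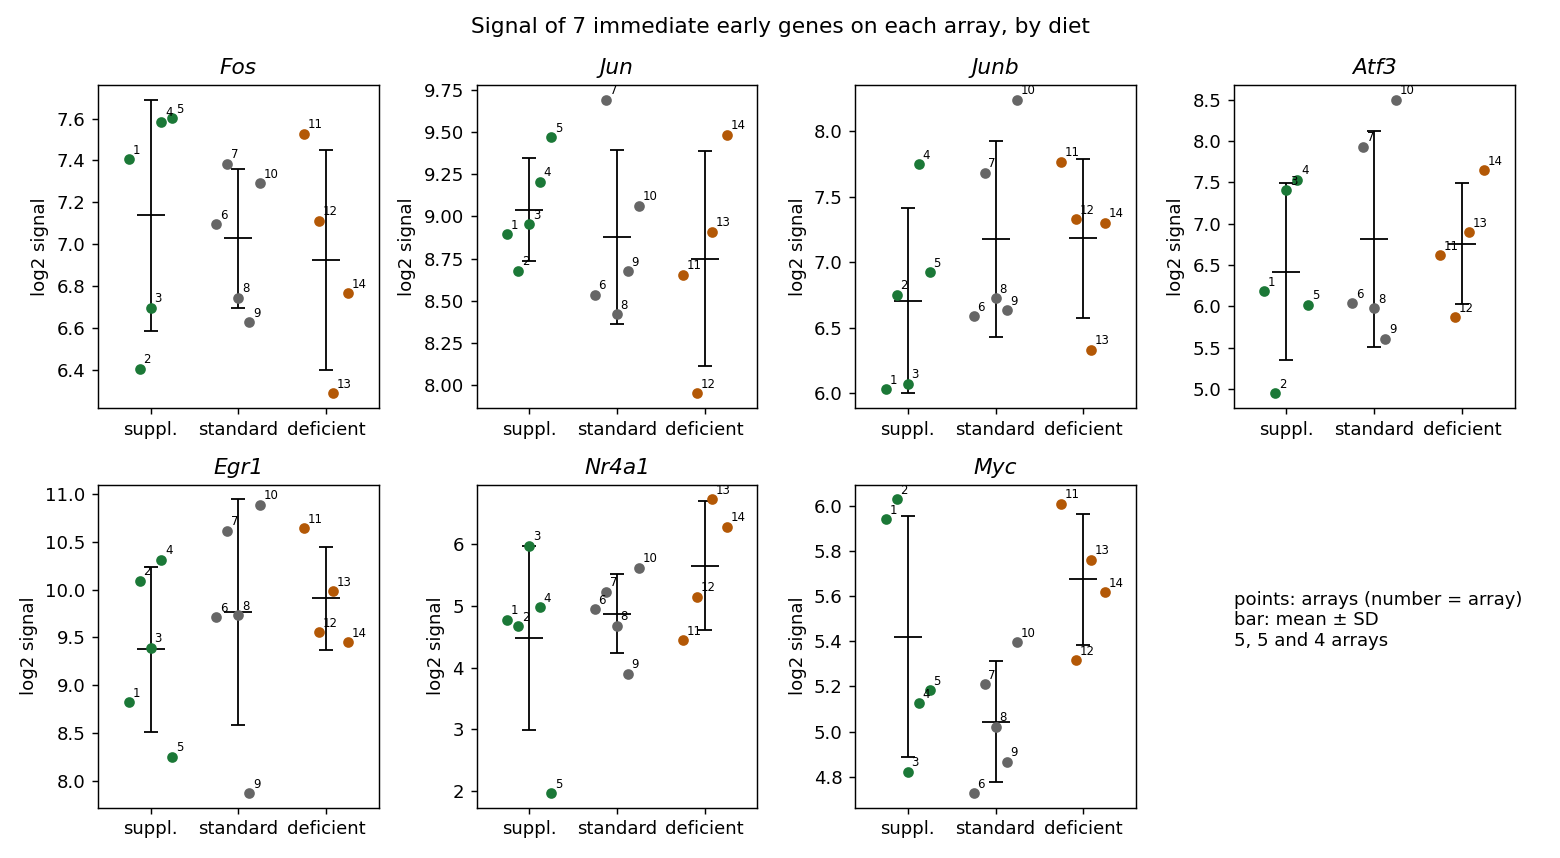
Log2 normalised signal (vertical axis, 1 panel per gene) of the probe set that stands for each of the 7 genes, by diet (horizontal axis). Points are arrays with their array number, and the bar is the mean ± SD of 5, 5 and 4 arrays. The diets overlap in every panel, and Egr1 runs from 233.9 to 1902 units within the standard diet alone.

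Fos and Jun encode the partners of the classical AP-1 dimer. The main Fos probe set, X06769cds_g_at, read 169.5, 84.8, 103.6, 192.0 and 194.4 units on supplemented arrays 1 to 5. It read 136.7, 167.2, 107.1, 98.9 and 156.7 units on standard arrays 6 to 10, and 184.7, 138.3, 78.1 and 108.8 units on deficient arrays 11 to 14. The highest and the lowest Fos value came from the supplemented and the deficient diet, with the standard arrays between them. The log2 means were 7.14 ± 0.55 (SD, n = 5), 7.03 ± 0.33 (SD, n = 5) and 6.92 ± 0.53 (SD, n = 4) in the order supplemented, standard and deficient. The neighbouring diets in that order differed by -0.11 ± 0.30 (SE) for deficient minus standard (95% interval -0.75 to 0.54, limma adjusted p = 0.999) and 0.11 ± 0.28 for supplemented minus standard (-0.49 to 0.71, adjusted p = 0.928). Neither exceeded its error. Over the 14 arrays the other Fos probe sets ranged from 33.2 to 76.9 units (X06769cds_at) and from 13.5 to 93.9 units (X03347cds_g_at). All 3 Fos probe sets were lower on the deficient than on the standard and the supplemented diet in their means, by at most 0.31 on the log2 scale.

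Jun showed the same order of diets as Fos in the main probe sets, again within error. Its main probe set, rc_AI175959_at, read 475.8, 409.3, 495.9, 590.8 and 710.5 units on the supplemented arrays, 371.2, 829.1, 342.1, 408.9 and 535.0 units on the standard arrays and 402.6, 247.1, 481.2 and 717.0 units on the deficient arrays. The lowest value was deficient array 12 and the highest standard array 7. Log2 means were 9.04 ± 0.31 (SD, n = 5) supplemented, 8.88 ± 0.52 (SD, n = 5) standard and 8.75 ± 0.64 (SD, n = 4) deficient. The deficient minus standard difference was -0.13 ± 0.30 (SE; 95% interval -0.78 to 0.52, limma adjusted p = 0.999). Between the ends of the order, deficient minus supplemented, it was -0.29 ± 0.30 (-0.94 to 0.36, adjusted p = 0.700). The probe set X17163cds_s_at spread far more: it read 11.5 and 5.90 units on deficient arrays 11 and 12, under the 14.3 units of the dim-probe filter, and 73.1 and 145.1 units on deficient arrays 13 and 14. Its deficient minus supplemented difference of -1.22 ± 0.77 (SE) had a limma adjusted p of 0.505, with 2 deficient arrays low and 2 high. After each diet's mean was removed, rc_AA945867_at had a Pearson r of 0.846 with the main probe set (adjusted permutation p = 0.00761). For X17163cds_s_at and the main probe set r was 0.741 (adjusted permutation p = 0.0199), which did not pass in 5 of 20 alternatives. For X17163cds_s_at and rc_AA945867_at r was 0.641 (adjusted permutation p = 0.0545). The fourth Jun probe set, rc_AA944014_at, had its highest value on deficient array 11 (55.9 units), where X17163cds_s_at was among its lowest. The r of rc_AA944014_at with the others was 0.357 (main), 0.288 (rc_AA945867_at) and -0.0436 (X17163cds_s_at), so it did not follow them. The order of diet means also differed between probe sets. Jun rc_AA945867_at and Fos X06769cds_at had their highest mean on the standard diet, and Jun rc_AA944014_at on the deficient diet.

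Junb encodes an AP-1 subunit that can restrain Jun. Its main probe set, rc_AA891041_at, read 65.5, 107.8, 67.5, 214.8 and 121.2 units on supplemented arrays 1 to 5, 96.1, 205.4, 106.0, 99.3 and 302.2 units on standard arrays 6 to 10, and 217.7, 160.8, 80.6 and 157.8 units on deficient arrays 11 to 14. Standard array 10 was highest and supplemented arrays 1 and 3 were lowest. The log2 means, 6.71 ± 0.70 (SD, n = 5) supplemented, 7.17 ± 0.75 (SD, n = 5) standard and 7.18 ± 0.60 (SD, n = 4) deficient, put the supplemented diet last. Supplemented minus standard was -0.47 ± 0.39 (SE; 95% interval -1.31 to 0.37, limma adjusted p = 0.728), and deficient minus standard was 0.0084 ± 0.42 (-0.88 to 0.90, adjusted p = 0.999). The second Junb probe set, X54686cds_at, gave the opposite sign for supplemented minus standard, 0.18 ± 0.27 (adjusted p = 0.866). After each diet's mean was removed, the 2 Junb probe sets had a Pearson r of 0.746 and a Spearman rho of 0.82. Permutation p-values adjusted over 18 pairs of probe sets were 0.0174 and 0.0112, and for r this did not pass in 2 of 20 alternatives.

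Atf3 encodes a stress-induced bZIP repressor known from regenerating liver, and it was among the most variable of these genes. M63282_at read 72.6, 30.9, 169.8, 184.7 and 65.0 units on the supplemented arrays, 65.8, 243.8, 63.0, 48.8 and 361.9 units on the standard arrays and 98.1, 58.5, 119.3 and 200.8 units on the deficient arrays. Within the standard diet, arrays 7 and 10 stood well above arrays 6, 8 and 9, a 7.41-fold range. The diet means lay close together, at 6.42 ± 1.07 (SD, n = 5) supplemented, 6.81 ± 1.31 (SD, n = 5) standard and 6.76 ± 0.74 (SD, n = 4) deficient on the log2 scale. The largest of the 3 differences, supplemented minus standard, was -0.39 ± 0.60 (SE; 95% interval -1.68 to 0.89, limma adjusted p = 0.867). Fold differences from 0.312 to 1.86 lay within that interval.

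Egr1 encodes a zinc finger transcription factor induced by growth factor signalling through serum response factor. Its main probe set, AF023087_s_at, read 452.4, 1094, 672.6, 1273 and 304.8 units on supplemented arrays 1 to 5. On standard arrays 6 to 10 it read 838.6, 1570, 849.8, 233.9 and 1902 units, and on deficient arrays 11 to 14 it read 1601, 752.1, 1013 and 699.7 units. The lowest and the highest of all 14 values, 8.13-fold apart, were both on the standard diet (arrays 9 and 10). The log2 means were 9.38 ± 0.86 (SD, n = 5) supplemented, 9.76 ± 1.18 (SD, n = 5) standard and 9.91 ± 0.54 (SD, n = 4) deficient. The step between supplemented and standard was -0.39 ± 0.51 (SE; 95% interval -1.48 to 0.70, limma adjusted p = 0.844) and that between deficient and standard 0.14 ± 0.54 (-1.02 to 1.30, adjusted p = 0.999). Deficient minus supplemented was 0.53 ± 0.54 (-0.63 to 1.69, adjusted p = 0.692), and all 4 Egr1 probe sets had this sign. The supplemented arrays also had the lowest Gapdh 3'/5' signal ratio, a measure of RNA quality that rises with degradation. Its log2 value was 0.71 ± 0.49 (SD, n = 5) supplemented, 1.64 ± 0.61 (SD, n = 5) standard and 1.84 ± 0.65 (SD, n = 4) deficient. With that ratio as a covariate the Egr1 difference between the deficient and supplemented diets turned to -0.71 and the supplemented minus standard difference to 0.63, neither called.

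Of the 4 Egr1 probe sets, 3 ranked the arrays alike. After each diet's mean was removed, AF023087_s_at and rc_AI176662_s_at had a Pearson correlation of r = 0.926 and a Spearman correlation of rho = 0.930 over the 14 arrays (permutation p = 0.00014 and 0.00022; adjusted 0.00198 and 0.00306 over 18 pairs of probe sets). For AF023087_s_at and M18416_at r was 0.905 and rho 0.899 (permutation p = 0.00022 and 0.00034, adjusted 0.00198 and 0.00306), and for M18416_at and rc_AI176662_s_at r was 0.921 and rho 0.859 (permutation p = 0.00071 and 0.00159, adjusted 0.00426 and 0.00716). Without the 2 arrays farthest from the median, r was 0.936, 0.899 and 0.807 in the same order. In all 3, supplemented array 5 and standard array 9 were lowest of their diets and supplemented array 4 highest, and standard arrays 7 and 10 were the upper ones of theirs. On the deficient diet array 11 was highest for AF023087_s_at and M18416_at, while rc_AI176662_s_at was highest on array 13 (71.0 units, against 66.3 on array 11). The fourth, U75398_s_at, stayed between 32.0 and 54.6 units and had an r of 0.301 with AF023087_s_at (rho 0.103; permutation p = 0.378 and 0.751, adjusted 0.469 and 0.845). The platform annotation gives it the symbol Egr1, but it did not follow the other 3.

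**Figure D2:**
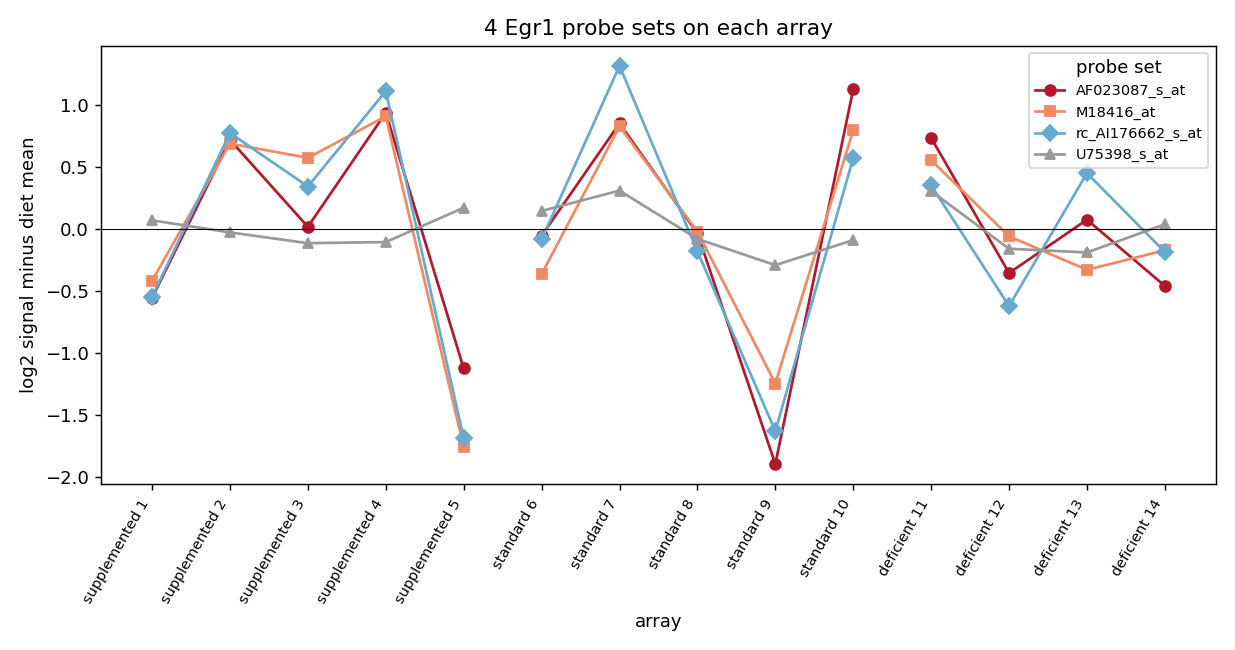
Log2 signal of the 4 Egr1 probe sets minus the mean of the diet (vertical axis) on each of the 14 arrays (horizontal axis), with lines joining arrays of a diet only to guide the eye. AF023087_s_at, M18416_at and rc_AI176662_s_at fall together on supplemented array 5 and standard array 9 and lie together above the diet mean on supplemented array 4 and standard arrays 7 and 10, while U75398_s_at stays flat.

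Nr4a1 (Nur77) encodes an orphan nuclear receptor that is switched on by hormones such as glucagon in liver. U17254_g_at read 27.3, 25.5, 62.6, 31.5 and 3.93 units on the supplemented arrays, the last of these (array 5) being the floor to which low signals were raised. The standard arrays 6 to 10 read 30.8, 37.5, 25.6, 14.9 and 49.0 units, and the deficient arrays 11 to 14 read 21.7, 35.4, 105.2 and 77.4 units. Deficient arrays 13 and 14 were the highest of all. The log2 means were 4.47 ± 1.49 (SD, n = 5) supplemented, 4.87 ± 0.65 (SD, n = 5) standard and 5.64 ± 1.04 (SD, n = 4) deficient. Deficient minus supplemented was 1.17 ± 0.66 (SE), or 2.25-fold, the largest difference among the genes' main probe sets (95% interval -0.24 to 2.58, limma adjusted p = 0.451). It was 0.56 without supplemented array 5 and -0.088 with the Gapdh ratio as a covariate. The second probe set, U17254_at, gave 0.056 ± 0.34 (SE) for the same comparison.

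Myc encodes a transcription factor that drives growth and ribosome production. Its main probe set, Y00396mRNA_g_at, read 61.4, 65.3, 28.3, 34.9 and 36.3 units on the supplemented arrays, 26.5, 37.0, 32.5, 29.2 and 42.1 units on the standard arrays and 64.4, 39.8, 54.2 and 49.1 units on the deficient arrays. The deficient arrays 11, 13 and 14 lay above every standard array, and deficient array 12 lay between standard arrays 7 and 10. Supplemented arrays 1 and 2 matched the top of the deficient diet, whereas supplemented array 3 lay among the low standard arrays. The log2 means were 5.42 ± 0.53 (SD, n = 5) supplemented, 5.04 ± 0.27 (SD, n = 5) standard and 5.68 ± 0.29 (SD, n = 4) deficient. Deficient minus standard was 0.63 ± 0.26 (SE), or 1.55-fold, with a 95% interval of 0.075 to 1.19 (unadjusted p = 0.0289, limma adjusted p = 0.999). The exact two-sided permutation test of that difference gave p = 0.0238, where 0.00794 is the smallest that 5 against 4 arrays allow. That test was planned only for probe sets that fail the dim filter, which Myc passed. Egr1 U75398_s_at had the same permutation p in supplemented minus standard, at -0.35 ± 0.17 (SE; limma adjusted p = 0.547). For the main Myc probe set, supplemented minus standard was 0.38 ± 0.25 (-0.15 to 0.90, limma adjusted p = 0.664). The second probe set, Y00396mRNA_at, was higher than on the standard diet by 0.35 ± 0.46 (SE) on the deficient and 0.50 ± 0.44 on the supplemented diet. Both Myc probe sets thus had the same signs against the standard diet, and neither was called. In deficient minus supplemented their signs differed, at 0.25 (main) and -0.14 (second). After each diet's mean was removed, their Pearson r was 0.567 (adjusted permutation p = 0.134).

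**Figure D3:**
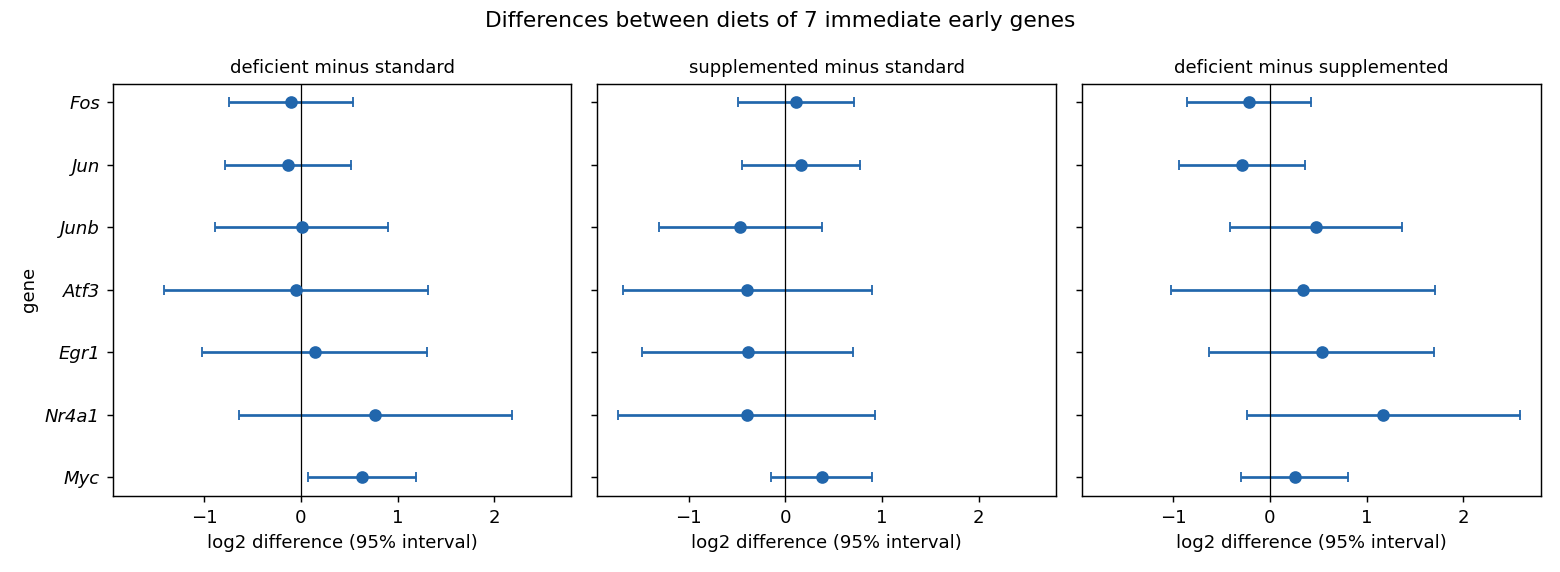
Log2 difference between diets (horizontal axis) with its 95% interval from limma, for the probe set that stands for each of the 7 genes (vertical axis), in 1 panel per comparison. The interval excludes 0 before adjustment only for Myc in deficient minus standard (0.075 to 1.19), and the widest intervals are those of Nr4a1 and Atf3.

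The precision of these comparisons differed between genes. Of the 21 differences (7 genes in 3 comparisons), 9 had a 95% interval that lay within a 2-fold change in either direction, and the other 12 did not exclude such a change. Among the 18 probe sets, 8 were higher and 10 lower on the deficient than on the standard diet, with a median difference of -0.047, beside a median of 0.00059 and 50.1% higher over all probe sets tested. Supplemented minus standard gave 8 higher and 10 lower (median -0.036, beside -0.016 over all), and deficient minus supplemented 10 higher and 8 lower (median 0.080, beside 0.023 over all). No common direction of the group stood out from these counts.

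The spread between arrays of the same diet was wide for the main probe sets of Egr1, Atf3 and Nr4a1. The SD within diets was 0.93 for Egr1, larger than that of 93.7% of all tested probe sets and of 96% of the 500 probe sets nearest to it in mean signal, whose median SD was 0.321. Atf3 had an SD of 1.09, above 97% of tested and 97.6% of like-signal probe sets. Nr4a1 had an SD of 1.12, above 97.4% and 96%, and it was the 1 main probe set with a value at the floor. Its SD was 0.78 without supplemented array 5 and 0.64 on the log2(signal + 16) scale, and its second probe set, U17254_at, had 0.52 (70.3% and 55.4%). Junb followed with 0.69 (84.7% and 91.6%). Jun at 0.49 (67.6% and 77.2%) and Fos at 0.48 (65.4% and 71.6%) were closer to the middle, and Myc at 0.39 lay at it (50.6% and 47.6%). The placing differed between probe sets of a gene: Jun X17163cds_s_at had 1.32 (98.7% and 98.8%), Myc Y00396mRNA_at 0.77 (88.7% and 87.2%), Fos X03347cds_g_at 0.75 (87.6% and 90.6%) and Junb X54686cds_at 0.45 (61.7% and 69.4%). Of the other Egr1 probe sets, M18416_at (SD 0.87) and rc_AI176662_s_at (SD 0.98) were as variable as the main one, and U75398_s_at, at 0.20, was steadier than all but 6.78% of tested probe sets. These percentages are a description of the arrays and carry no test.

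**Figure D4:**
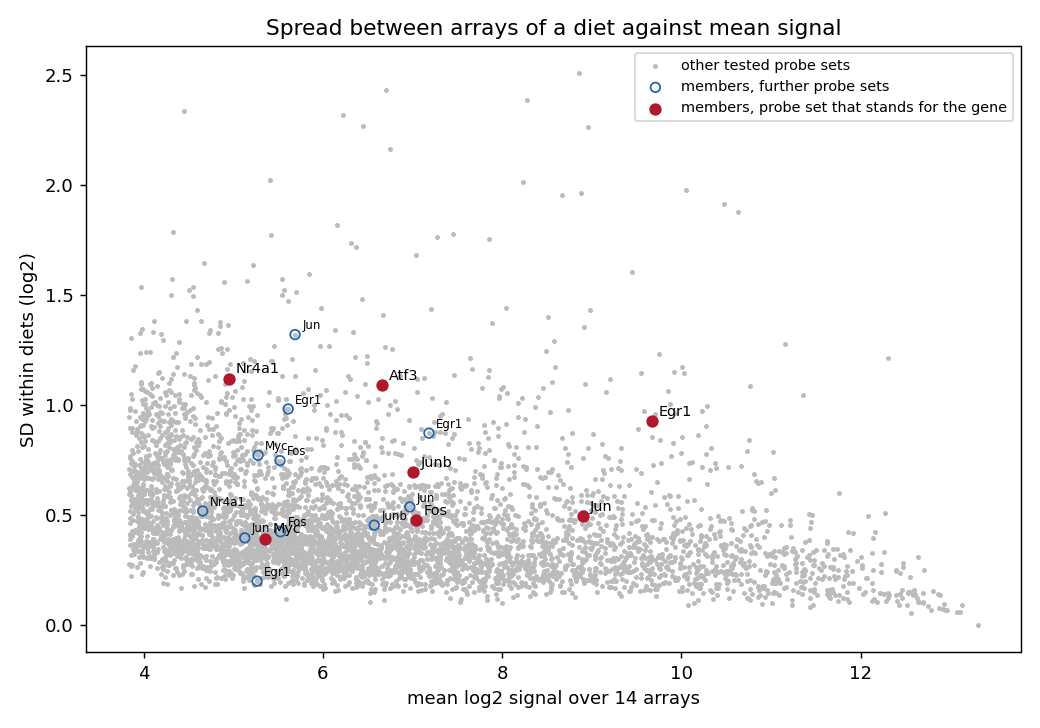
SD within diets on the log2 scale (vertical axis) against mean log2 signal over 14 arrays (horizontal axis) for all tested probe sets (grey), with the probe sets that stand for the 7 genes filled red and their further probe sets as open blue circles. Egr1 (SD 0.93), Atf3 (1.09) and Nr4a1 (1.12) lie near the top of the cloud at their signal, and Fos, Jun and Myc within it.

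The arrays that were high were partly the same for different genes. Within the standard diet, array 10 had the highest signal for 5 of the 7 genes (Junb, Egr1, Atf3, Myc and Nr4a1) and array 7 for the other 2 (Fos and Jun), while array 9 had the lowest for 4 (Fos, Egr1, Atf3 and Nr4a1). Standard array 10 also had the highest Gapdh and beta-actin 3'/5' ratios of its diet, at 2.65 and 2.63 on the log2 scale. Standard array 9 had the lowest of both ratios in its diet, at 1.04 and 0.77. Standard array 7 had a Gapdh ratio of 1.36, below the standard mean, with the second highest Egr1 and Atf3 values of its diet. On the deficient diet array 11 was highest for 4 genes (Fos, Junb, Egr1 and Myc) and array 12 lowest for 3. On the supplemented diet array 4 was highest for 3 genes, and array 5 was highest for 2 (Fos and Jun) and lowest for 2 (Egr1 and Nr4a1), with the lowest Gapdh ratio of all arrays (-0.12). Array 5 had the lowest mean rank correlation with the other 13 arrays, 0.910, against 0.937 or above for the rest. For all tested genes, the share highest or lowest on each array was not computed. The counts of highest and lowest genes per array therefore do not set the 7 genes apart.

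Whether the genes varied together was tested over the 21 pairs, after each diet's mean was removed. None passed at an adjusted p under 0.05 by Pearson's r or Spearman's rho. The strongest pair was Jun and Atf3 (r = 0.681, rho = 0.798; permutation p = 0.00892 and 0.00383, adjusted 0.187 and 0.0804), with r = 0.598 without standard array 7 and deficient array 14. It passed under 2 alternatives, with arrays centred on their median (r = 0.724, adjusted p = 0.0443) and without supplemented array 5 (r = 0.758). Next were Fos and Junb (r = 0.632, rho = 0.657; permutation p = 0.0262 and 0.027, adjusted 0.275 and 0.189; r = 0.677 without supplemented array 2 and deficient array 13). For Junb and Egr1 r was 0.578 and rho 0.521 (permutation p = 0.0567 and 0.0773, adjusted 0.328 and 0.325), and r fell to 0.357 without supplemented array 4 and standard array 10. For Atf3 and Nr4a1 r was 0.516 and rho 0.666 (permutation p = 0.0624 and 0.011, adjusted 0.328 and 0.115), with r = 0.483 without standard arrays 7 and 10. For Egr1 and Atf3 r was 0.504 and rho 0.596 (permutation p = 0.128 and 0.0567, adjusted 0.384 and 0.298), and r fell to 0.23 without standard arrays 9 and 10, so that relation rested on those arrays. Of the 21 pairs, 18 had a positive r, with a median of 0.25, beside a median of 0.0056 and 50.6% positive over all 4720128 pairs of tested genes. Every pair had a positive r within the standard diet alone, whereas signs were mixed within the supplemented and within the deficient diet. How many of all gene pairs were positive within the standard diet alone was not computed. The 21 pairs share the same 7 genes and are not independent, so this count does not set these genes apart. For Fos and Nr4a1 r was 0.898 standard, -0.506 supplemented and -0.977 deficient. For Jun and Atf3 it was 0.782, 0.378 and 0.998 in that order. Each of these values rests on 4 or 5 arrays. An r at or above that of Jun and Atf3 was reached by 2.26% of all gene pairs.

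**Figure D5:**
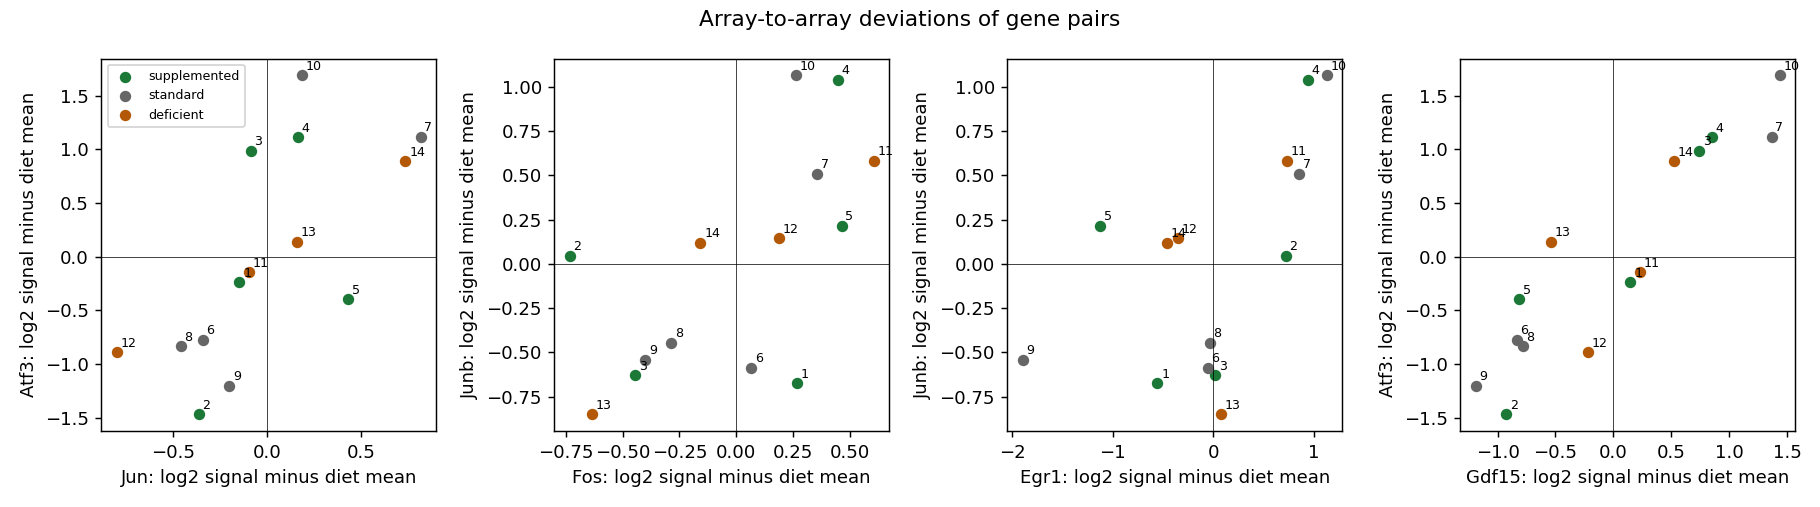
Log2 signal minus the mean of the diet for 4 pairs of genes (both axes), 1 point per array with its number, coloured by diet. Jun and Atf3 (r = 0.681), Fos and Junb (r = 0.632) and Egr1 and Junb (r = 0.578) scatter widely, while Gdf15 and Atf3 (r = 0.919) lie close to a line.

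Egr1 had a positive correlation with the Gapdh 3'/5' ratio that passed before adjustment only. Within diets, the log2 Gapdh ratio and Egr1 gave r = 0.688 and rho = 0.719 (permutation p = 0.0142 and 0.00665, adjusted 0.199 and 0.0931 over 14 relations), and r was 0.728 without standard array 10 and deficient array 13. With arrays centred on their median this relation passed (r = 0.754, adjusted p = 0.0286). With the beta-actin ratio, Egr1 gave r = 0.456 and rho = 0.495 (permutation p = 0.132 and 0.098, adjusted 0.616 and 0.541; r = 0.372 without the same arrays). For Nr4a1 and the Gapdh ratio r was 0.576 and rho 0.481 (permutation p = 0.0437 and 0.116, adjusted 0.306 and 0.541), with r = 0.489 without the same 2 arrays. Without supplemented array 5, standard array 10 and deficient array 13 together, that r was -0.41. For Fos, Jun, Junb, Atf3 and Myc the r with the Gapdh ratio lay between -0.162 (Jun; rho = -0.103, permutation p = 0.631 and 0.748, adjusted 0.826 and 0.934) and 0.371 (Myc; rho = 0.42, permutation p = 0.198 and 0.168, adjusted 0.693 and 0.588). The part of RNA quality in the Egr1 differences between arrays was not tested. In bulk tissue, a lower signal from fewer cells of a type and from less RNA per cell cannot be told apart. Markers of other cell types were present in each diet: 9 of 14 Kupffer cell and macrophage markers passed the dim filter, with a summed signal of 1575 to 2252 units supplemented, 1310 to 1742 standard and 1380 to 1734 deficient. Of the lymphocyte markers, 3 of 10 passed, summing to between 48.8 and 94.2 units over all arrays. No relation between the 7 genes and the summed markers of a cell type passed adjustment. The smallest p was that of Nr4a1 with markers of neighbouring pancreas and fat (r = -0.825, rho = -0.697; permutation p = 0.0153 and 0.0269, adjusted 0.444 for r; r = -0.614 without supplemented array 5 and deficient array 12). The muscle markers of that list (Ckm, Myh4 and Acta1) were dim and not part of the sum.

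For each gene the 3 genes whose signals were most like it over the 14 arrays were listed by Pearson's r after removal of diet means, out of 3072 others. These are the highest of many values and are a description without a test. Atf3 stood closest to Gdf15, which encodes a stress-induced cytokine of the TGF-beta family (r = 0.919, rho = 0.916). Gdf15 read 129.4 and 135.8 units on standard arrays 7 and 10 and 28.2, 29.2 and 22.0 units on standard arrays 6, 8 and 9, the same division of arrays as for Atf3. On the supplemented diet it read 55.6 and 59.8 units on arrays 3 and 4, the arrays with most Atf3, and 36.8, 17.5 and 18.9 units on arrays 1, 2 and 5. On the deficient diet the order differed: Gdf15 read 82.5, 60.6, 48.6 and 101.3 units on arrays 11 to 14, lowest on array 13, which had the second highest Atf3 of that diet (119.3 units). This r lay between 0.89 and 0.946 when 1 array was left out. Ntf3 (r = 0.744) and Pard3 (0.742) came next for Atf3. Jun was most like Pam (0.833), Ppp1r2 (0.817) and Id1 (0.774), a helix-loop-helix inhibitor gene that is itself an early response gene. Junb was most like Bhlha15 (0.864), Cp (0.852), which encodes the acute phase protein ceruloplasmin, and Cldn3 (0.831). Fos was most like Itgb1 (0.807) and Sri (0.792), and then Cp (0.764). Egr1 was most like Ank3 (0.840), Ndufa6 (0.828) and Rpl30 (0.827), and Myc most like Zfp37 (0.862), Sox13 (0.839) and Gmfb (0.825). Nr4a1 was most like Eif2b5 (0.890), Ghr (0.886) and Hsd3b7 (0.878), with rho of 0.745, 0.719 and 0.758. On supplemented array 5, where Nr4a1 was at the floor, these genes also had their lowest signals. Their log2 deviations from the diet mean there were -1.73, -1.77 and -1.24. The r without that array was not computed.

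The other genes of the early response were taken from 6 lists, for which 0 genes were called in any of the 3 comparisons. AP-1 and bZIP relatives had 9 tested genes. Of these, 1 lay under an unadjusted p of 0.05 in each comparison, where 3.19% (deficient against standard), 8.14% (supplemented against standard) and 12.3% (deficient against supplemented) of all genes did. It was the AP-1 subunit gene Fosl2 in deficient minus standard (-0.58 ± 0.25, SE; limma adjusted p = 0.999) and the stress factor gene Ddit3 in the others, with deficient minus supplemented at 1.503 ± 0.48 (adjusted p = 0.264) and 0.67 with the Gapdh ratio as a covariate. The list of Egr, Nr4a, Klf and other early transcription factors and regulators had 18 tested genes. Of these 12 were higher in deficient minus standard (median 0.081, beside 0.013 over all genes), 8 in supplemented minus standard (-0.10, beside -0.035) and 10 in deficient minus supplemented (0.090, beside 0.055), with 0, 1 and 1 under an unadjusted p of 0.05 where 3.19%, 8.14% and 12.3% of all genes were. Their smallest p belonged to Bhlhe40, a clock repressor gene, in both comparisons with the standard diet (0.41 ± 0.23 for deficient and 0.59 ± 0.21 for supplemented, SE; limma adjusted p = 0.999 and 0.492), and to the NF-kappaB inhibitor gene Nfkbia in deficient minus supplemented (0.88 ± 0.39, adjusted p = 0.373). The Nfkbia difference was 0.55 without supplemented array 5 and 0.21 with the Gapdh ratio as a covariate.

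Early secreted and effector genes had 15 tested members and 0 under an unadjusted p of 0.05 in any comparison. Of all genes, 3.19% lay under it in deficient against standard, 8.14% in supplemented against standard and 12.3% in deficient against supplemented. The matrix protein gene Ccn1 came closest, at 0.99 ± 0.52 (SE) for deficient minus standard and 1.02 ± 0.52 for deficient minus supplemented, and Errfi1, an inhibitor of EGF receptor signalling, at 0.25 ± 0.16 for supplemented minus standard (limma adjusted p = 0.999, 0.418 and 0.664). Ccn1 in deficient minus supplemented was 0.58 without supplemented array 1 and 1.87 with the Gapdh ratio as a covariate, and on the log2(signal + 16) scale its differences were 0.60 and 0.57. Errfi1 was 0.13 without supplemented array 5 or with the Gapdh ratio as a covariate, and 0.050 with arrays centred on their median. Feedback inhibitors had 11 tested genes, with 0, 2 and 0 under an unadjusted p of 0.05 in deficient against standard, supplemented against standard and deficient against supplemented (3.19%, 8.14% and 12.3% of all genes). Among them Dusp1, a phosphatase that switches MAP kinases off, was at -0.68 ± 0.36 (SE) for deficient minus supplemented (limma adjusted p = 0.424), and Cish at 1.30 ± 0.50 for supplemented minus standard (adjusted p = 0.499) and 0.63 ± 0.53 for deficient minus standard (adjusted p = 0.999). The latter was 0.18 without deficient array 11, 0.30 without standard array 8 and 0.39 without standard array 10, and centring arrays on their median gave -0.40 for Dusp1. Upstream kinases and serum response factors had 16 tested genes, with 0, 2 and 3 under an unadjusted p of 0.05 in the same order, beside 3.19%, 8.14% and 12.3% of all genes. Met, which encodes the hepatocyte growth factor receptor, had a log2 signal of 4.73 ± 0.096 (SD, n = 5) supplemented, 3.62 ± 0.55 (SD, n = 5) standard and 3.50 ± 0.56 (SD, n = 4) deficient. The standard and deficient means lay under the dim-probe filter, which is 3.83 on the log2 scale. Met, counted in the 2 and in the 3, thus passed the filter only through its supplemented signal. It differed by 1.10 ± 0.30 (SE) for supplemented minus standard and -1.23 ± 0.32 for deficient minus supplemented (limma adjusted p = 0.474 and 0.245), and by 0.565 and -0.618 on the log2(signal + 16) scale. Map2k1, a MAP kinase kinase gene, was at -0.25 ± 0.24 for deficient minus standard (adjusted p = 0.999).

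The Myc network and Myc target genes had 14 tested members. Of these 0, 4 and 4 lay under an unadjusted p of 0.05 in the same order of comparisons, again beside 3.19%, 8.14% and 12.3% of all genes. In supplemented minus standard all 4 were lower. The cyclin gene Ccnd1 was at -0.82 ± 0.30 (SE) in that comparison (limma adjusted p = 0.492) and Ccnd2 at 0.85 ± 0.31 for deficient minus supplemented (adjusted p = 0.307). Where Myc itself had its smallest p, in deficient minus standard, the median difference of this list was 0.028, beside 0.013 over all genes. Its smallest p there was that of Mxd4, which encodes a Max-binding repressor, at -0.82 ± 0.62 (adjusted p = 0.999) and -0.011 without deficient array 13 or -1.27 without deficient array 14.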

How the data were processed

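The 14 arrays were measured from about 5 µg of total RNA each, per the labels. The authors deposited linear intensity values, 1 per probe set and array. Their software is not given in the sources used here, and no detection calls were used. Every array had a trimmed mean of 150.3 units, while array medians differed by up to 1.91 times. The 59 control probe sets were left out, signals were quantile normalised, set to a floor at the pooled 20th percentile (3.93 units) and put on the log2 scale. Probe sets with a mean above the pooled 40th percentile (14.3 units) were tested: 5133 probe sets, 3073 genes. Fold changes understate changes of dim probe sets.

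Diets were compared with limma 3.58.1 in R 4.3.3 (trend on the mean, Benjamini-Hochberg adjustment, two-sided). Correlations used 100000 permutations within diets. The model was tested on simulated data. The 8 genes, the lists and the rules (every member probe set; per list and comparison the gene with the smallest p; 3 most like genes) were chosen with earlier results of these data known. Gene names came from the platform annotation: 7006 probe sets had 1 symbol, 308 several and 1426 none. A dim signal may be background, for lack of detection calls. Precision is limited by how many arrays there are.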

Additional observations from a re-analysis of the deposited data

Results flagged for a closer look

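Of the 54 sets of 4 or 5 arrays examined (18 probe sets in 3 diets), 1 had an array far from the others. It was the second Nr4a1 probe set, U17254_at, on the supplemented diet, where array 3 was at 4.93 on the log2 scale, the next array at 4.69, and the gap took up 0.726 of the range of the 5 arrays. Chance flags about 1 set in 20, and 1 of 54 was seen. The main Nr4a1 probe set was also highest on that array within the diet, at 62.6 units.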

How the results depend on the processing

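For the 7 genes no difference between diets was called under any alternative run (561 values over 21 differences, smallest limma adjusted p 0.342), and 44 values changed sign. Each of the differences that turned had a 95% interval that included 0; the largest was that of Nr4a1 in deficient minus supplemented, 1.17 ± 0.66 (SE). Every alternative was listed as planned, but the joint omission of supplemented array 5, standard array 10 and deficient array 13 was not independent of these data. Supplemented array 5 had the lowest mean rank correlation with the other arrays. Standard array 10 and deficient array 13 had the highest Gapdh and beta-actin ratios of their diets.

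With the Gapdh ratio as a covariate, deficient minus standard was -0.034 for Junb and -0.083 for Egr1. Supplemented minus standard was then 0.63 for Egr1, 0.18 for Atf3 and 0.63 for Nr4a1, and deficient minus supplemented -0.71 for Egr1, -0.36 for Atf3, -0.029 for Myc and -0.088 for Nr4a1. With the beta-actin ratio, deficient minus standard was -0.072 for Junb and -0.083 for Egr1, and deficient minus supplemented -0.078 for Egr1 and -0.051 for Atf3. Without supplemented array 5, standard array 10 and deficient array 13 together, deficient minus standard was 0.17 for Fos and 0.32 for Atf3, supplemented minus standard 0.17 for Egr1, 0.13 for Atf3 and 0.41 for Nr4a1, deficient minus supplemented 0.11 for Fos, and the r of Nr4a1 with the Gapdh ratio -0.41. With array weights, supplemented minus standard was -0.014 for Fos and 0.097 for Nr4a1, and deficient minus supplemented 0.013 for Fos. With arrays centred on their median, Atf3 was at 0.049 for deficient minus standard and Jun at -0.034 for supplemented minus standard. With signals as deposited, Junb was at -0.00187 for deficient minus standard. The cause of these changes was not tested.

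Over all probe sets, calls in deficient minus supplemented and in the F-test went from 1 to 0 with signals as deposited, log2(signal + 16), a filter at the 60th percentile, either ratio as a covariate or without the 3 arrays, and to 2 with no filter; fitting only 2 diets also gave 0 in the former. Calls in supplemented minus standard went from 0 to 1 with a floor at the 30th percentile, array weights or no trend, and calls in deficient minus standard from 0 to 1 with no filter. Correlated pairs of the genes, and relations with the ratios, each went from 0 to 1 with arrays centred on their median.

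At an unadjusted p under 0.05, deficient minus standard gave 364 probe sets with no filter, 89 with the 60th percentile filter and 236 with array weights, beside 156. Supplemented minus standard gave 132 with the Gapdh ratio, 245 with the actin ratio and 271 without the 3 arrays, beside 456. Deficient minus supplemented gave 113 and 244 with the ratios, beside 669, and the F-test 117 and 189 with them and 738 with array weights, beside 462. Leaving out 1 array gave 94 (without deficient array 13) to 222 for deficient minus standard, 286 (without standard array 10) to 546 for supplemented minus standard, 395 (without deficient array 13) to 861 for deficient minus supplemented and 346 to 606 for the F-test.

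Leaving out 1 array in turn gave 0 calls for deficient minus standard, 0 to 2 for supplemented minus standard, 0 to 4 for deficient minus supplemented, 0 to 3 for the F-test, and 0 to 1 correlated pairs (1 without supplemented array 5). Deficient minus standard then ran from -0.31 to 0.11 for Fos, -0.37 to 0.14 for Jun, -0.19 to 0.29 for Junb, -0.33 to 0.43 for Egr1, -0.35 to 0.37 for Atf3 and 0.52 to 0.75 for Myc. Supplemented minus standard ran from -0.0063 to 0.30 for Fos, -0.69 to 0.029 for Atf3 and -0.78 to 0.23 for Nr4a1, and deficient minus supplemented from -0.027 to 0.64 for Atf3.

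No paired analysis was possible because the array numbers run on from diet to diet and no number is shared between diets. The number of arrays, and signal near the floor for Nr4a1, limit precision.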

Other observations

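Some list genes were among those most like Jun, Junb and Egr1 when arrays were compared within diets. Names here were picked from the top of each order after their values were seen. Other list genes lay near the far end, such as Nfkbia for Jun (r = -0.446, rank 2830). For Junb this held for Tsc22d1 (r = -0.482, rank 2944), and for Egr1 for Cebpd (r = -0.512, rank 2908). Zfp36, which encodes a protein that destabilises early response mRNAs, ranked 6 of 3072 genes in likeness to Junb (r = 0.791), and Klf10 ranked 9 for Egr1 (r = 0.757). For Jun, Id1 ranked 3, the kinase gene Sgk1 8 (r = 0.723), Dusp1 12 (r = 0.709) and Id2 17 (r = 0.666). Of the 82 tested list genes, 9 (11%) were among the 100 genes most like Jun, where 3.26% of all genes are. For the others these numbers were 5 for Egr1 and for Nr4a1 (6.1%), 4 for Atf3 (4.88%), 3 for Junb (3.66%) and 2 for Fos and for Myc (2.44%). The share for Junb was thus close to that of all genes. These are values without a test, and r over 14 arrays is imprecise.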
